A study of Mus musculus with 28 samples.

Results

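The genes described here are 43 genes of the lysosome and its proton pump, out of 13846 genes listed for embryonic cortex and 14104 listed for adult prefrontal cortex (PFC) in an RNA sequencing study of mice with a knocked-out Myt1l gene. They are a list of named genes, and all 43 were found by symbol in both tables. The group was chosen by a measured value: Psap, the prosaposin gene, was among the clearest falls in mutant embryonic cortex. The embryonic values below are therefore a description of the group. The adult libraries are not those of that fall, but the list was drawn up with earlier results of these data known. The adult tests may therefore not be independent of the choice.

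MYT1L is a neuronal transcription factor with zinc fingers. The libraries of embryonic cortex, taken at stage E14.5, came from 6 wild-type (WT), 6 heterozygous (Het) and 4 homozygous (Hom) embryos. Those from the PFC came from 6 WT and 6 Het adults, whose age in weeks the labels do not give. By label, females made up 5 of the 6 WT, 3 of the 6 Het and 3 of the 4 Hom embryos, and 3 of 6 adults in each group. The mutation is described only as a knockout of the line, with no driver or second allele named. Each library carries its own animal identifier. Libraries are named below by genotype, labelled sex (F or M) and the number in the label.

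Myt1l itself measured 18.2 to 23.3 CPM (counts scaled to a common library total) in the 4 Hom embryos and 45.9 to 66.6 CPM in the 6 WT embryos. The Het embryos ran from 30.6 to 59.5 CPM and overlapped the WT range. In the PFC all 6 Het libraries (105 to 121 CPM) lay below all 6 WT libraries (146 to 168 CPM). The Y-linked gene Ddx3y went against the labelled sex in 2 of 16 E14.5 libraries, Het F10 and Het M11, and in 0 of 12 PFC libraries. Neuronal identity was present: the 9 neuronal markers summed to 6491 to 8307 CPM over the E14.5 libraries, and none was at 0.

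Lysosomes are acidic organelles in which hydrolases degrade lipids, glycans, proteins and nucleic acids. The V-ATPase pumps protons into them. Membrane proteins carry ions and the products of digestion across the lysosomal membrane. Prosaposin is cut there into saposins, small proteins that present sphingolipids to their hydrolases, and brain cells also secrete it. Inherited loss of many of these genes causes lysosomal storage disease, often with damage to the brain. Transcription factors of the TFEB and TFE3 family activate many lysosomal genes through the letters CACGTG, and the zinc fingers of the MYT1 family bind AAGTT.

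The promoter windows of 4 members are shown because Psap had the largest fall among the called members in embryos, Ctsa was called in both mutant genotypes, Ctsd belongs to the same protease group and Gaa was the member called in adults. Each runs from 250 bases before to 50 bases after a RefSeq transcript start on GRCm38.p6 and is printed 5′ to 3′ on the strand of the gene. Capitals mark CACGTG.
Psap, chr10:60277378-60277677, plus strand: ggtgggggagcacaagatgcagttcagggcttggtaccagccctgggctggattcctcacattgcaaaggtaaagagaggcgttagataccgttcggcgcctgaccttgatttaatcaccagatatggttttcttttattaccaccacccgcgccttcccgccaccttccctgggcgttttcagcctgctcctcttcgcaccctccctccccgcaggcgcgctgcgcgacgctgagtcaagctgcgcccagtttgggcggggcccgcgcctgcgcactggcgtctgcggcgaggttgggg
Ctsa, chr2:164833523-164833822, plus strand: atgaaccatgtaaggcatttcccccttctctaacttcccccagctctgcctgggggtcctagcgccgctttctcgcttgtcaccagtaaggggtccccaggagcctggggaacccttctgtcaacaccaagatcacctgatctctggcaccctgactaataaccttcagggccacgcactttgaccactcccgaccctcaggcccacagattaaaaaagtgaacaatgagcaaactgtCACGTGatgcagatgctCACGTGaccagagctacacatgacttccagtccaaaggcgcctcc
Ctsd, chr7:142387778-142388077, minus strand: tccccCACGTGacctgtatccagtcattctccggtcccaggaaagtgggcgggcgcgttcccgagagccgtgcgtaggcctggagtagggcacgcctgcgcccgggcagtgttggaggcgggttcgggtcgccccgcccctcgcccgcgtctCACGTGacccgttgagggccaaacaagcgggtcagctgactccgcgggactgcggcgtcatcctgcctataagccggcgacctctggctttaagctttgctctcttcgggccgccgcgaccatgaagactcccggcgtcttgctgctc
Gaa, chr11:119267713-119268012, plus strand: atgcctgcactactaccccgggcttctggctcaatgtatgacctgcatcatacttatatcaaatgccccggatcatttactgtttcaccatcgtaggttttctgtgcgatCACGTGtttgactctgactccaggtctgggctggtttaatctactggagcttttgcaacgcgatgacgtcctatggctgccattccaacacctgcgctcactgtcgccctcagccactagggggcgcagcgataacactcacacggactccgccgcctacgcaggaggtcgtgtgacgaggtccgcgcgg
The Psap window shown holds no CACGTG, the Ctsa and Ctsd windows shown hold 2 each and the Gaa window holds 1. Psap and Ctsa each have another window, at a different transcript start, and neither of those holds CACGTG. In the Ctsa window shown the motifs begin at positions -12 and 5 counted from the transcript start, in Ctsd at -245 and -98, and in Gaa at -140.

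Windows were found for 36 of the 43 members, and 14 of these 36 genes (38.9%) hold CACGTG, a palindrome that reads alike on both strands. Over all 27025 genes with a window the share was 8.09%. The longer palindrome TCACGTGA, which contains the first motif, was found in 7 of 36 member genes (19.4%) against 1.12% of all genes. AAGTT, searched on both strands, was found in 38.9% of member genes and 42.8% of all genes. A match describes these windows and is not evidence of binding. The 14 members with CACGTG had a median log2 change of -0.16 in Hom embryos, with 2 called. The 21 tested members without it had a median of -0.12, with 5 called, among them Psap, which chose the group. Over all genes tested, 4.37% were called lower and 3.23% higher in Hom. Because the group was chosen on this contrast, nothing is read from these counts or medians.

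A gene is called here when its adjusted p was under 0.05 in limma across all genes tested, with Benjamini-Hochberg adjustment. Changes are on the log2(CPM + 0.5) scale, which understates the change of weakly expressed genes. Of the 43 members, 42 passed the filter on low values at E14.5 and 43 in the PFC. The member left out at E14.5 was Arsb, the sulfatase of dermatan and chondroitin sulfate, at 0.517 CPM ± 0.245 (SD, n = 6) in WT.

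Levels between genes are given per kilobase of the longest transcript (CPM per kb). In WT embryos the highest were Laptm4a, a small lysosomal membrane protein, at 504 CPM per kb, Psap at 184, Atp6v0c at 168 and Npc2, a soluble cholesterol carrier, at 164. The lowest were Arsb at 0.128, Sgsh at 0.501 and Manba at 0.55 CPM per kb. In WT adults Atp6v0c was first at 547.5 CPM per kb and Psap again second at 479.7, followed by Atp6v0d1 at 333, Atp6ap1 at 322 and Laptm4a at 279.5. Psap lay at the 96.6th percentile of listed genes in WT embryos and at the 98.8th in WT adults. The levels of the 2 tissues come from tables normalized separately, so they stand side by side and no fold is taken between them. Within each table the order of the members differed. Gaa ranked 31 of 43 in embryos and 12 in adults, and Npc2 ranked 4 and 19.

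**Figure D1:**
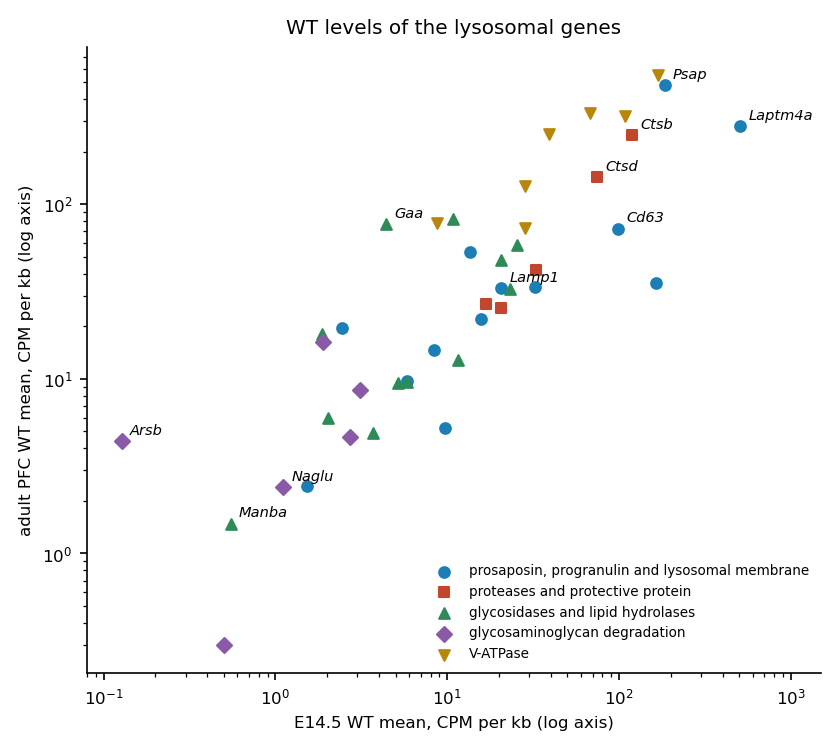
WT mean level of each of the 43 members in CPM per kb of the longest transcript, E14.5 cortex on the horizontal and adult PFC on the vertical axis, both logarithmic, with symbols for the 5 roles. Psap and Atp6v0c are near the top in both tables, and Arsb is the lowest member at E14.5 (0.128 CPM per kb) but not in the PFC (4.41).

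Psap was lower in both mutant genotypes of the embryo. In WT libraries its level ran from 443.7 CPM through a median of 491.9 CPM to 523.5 CPM. The Het libraries ran from 328.6 CPM through a median of 372.3 CPM to 396 CPM, and the 4 Hom libraries measured 276.8, 336.7, 362.3 and 363.4 CPM. Every Het and every Hom library lay below every WT library, while the Hom and Het ranges overlapped. The lowest library of all was Hom F01.

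The Hom mean was 68.4% of the WT mean and the Het mean 75.4%. The log2 change was -0.56 (SE 0.08) in Hom and -0.43 (SE 0.07) in Het. These are the values that chose the group, so no test is given for them. The 2 comparisons share the 6 WT libraries. Psap (ENSMUSG00000004207) is a protein-coding gene on the plus strand of chromosome 10, from 60277627 to 60302597 in GRCm38. In bulk tissue, fewer cells of a type that expresses Psap and less Psap RNA per cell cannot be told apart.

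In adult PFC, Psap ran from 1161 through a median of 1272 to 1376 CPM in WT and from 1059 through 1182 to 1360 CPM in Het. The groups overlapped, and 4 of 6 Het libraries were under the mean of WT. The estimate was -0.09 on the log2 scale (SE 0.05, limma adjusted p = 0.457), with a 95% confidence interval of -0.20 to 0.01. The embryonic Het change is among the values that chose the group, so the interval is not read against it. Those 2 changes were fitted in separate tables, and their difference was not tested.

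**Figure D2:**
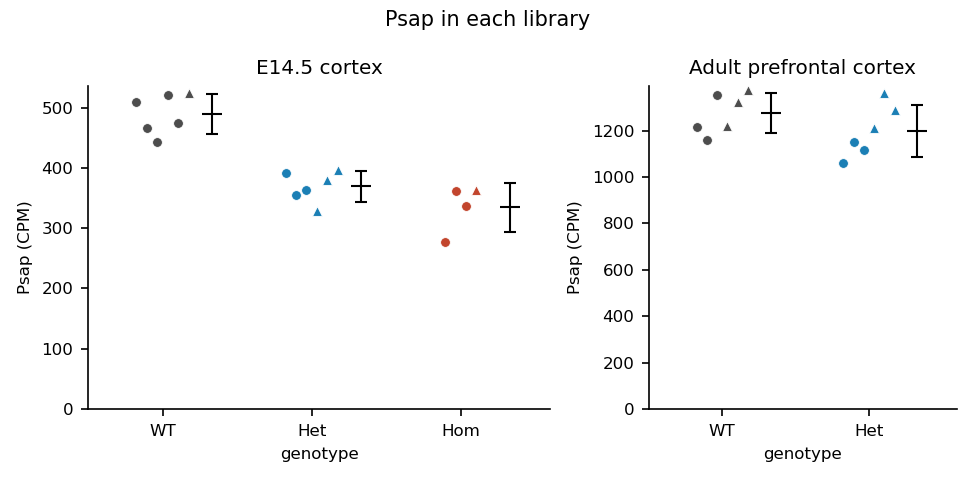
Psap in CPM in each library, by genotype, in E14.5 cortex (left) and adult PFC (right), with circles for females and triangles for males as labelled and bars for the mean ± SD. At E14.5 the Het (328.6 to 396 CPM) and Hom (276.8 to 363.4 CPM) libraries lie below the WT libraries (443.7 to 523.5 CPM), and in the PFC the groups overlap.

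In Hom embryos 8 of 42 tested members were called lower and 0 higher. Without Psap, the count was 7 of the other 41. Over all 12429 genes tested, 4.37% were called lower and 3.23% higher. Because the group was chosen on this contrast, nothing is read from the difference between those shares. The members' median change was -0.14 against 0.02 over all genes, and 32 of 42 were negative against 47.3% of all genes. Every Hom library lay below every WT library in 9 members (5.11% of all genes) and above in 2 (4.8% of all genes). The 9 were Psap, Ctsa, Ctsd, Tpp1, Tmem175, Hgsnat, Atp6ap1, Gla and Manba, and the 2 were Scarb2 and Atp6v1h. The count of called members depended on single libraries: it was 3 without Hom F01 (2 lower and 1 higher), 4 without Hom F09 and 5 without WT F04, WT F05 or WT F12. The share of all genes called in those fits is not given here, so these counts are not read as particular to the members.

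**Figure D3:**
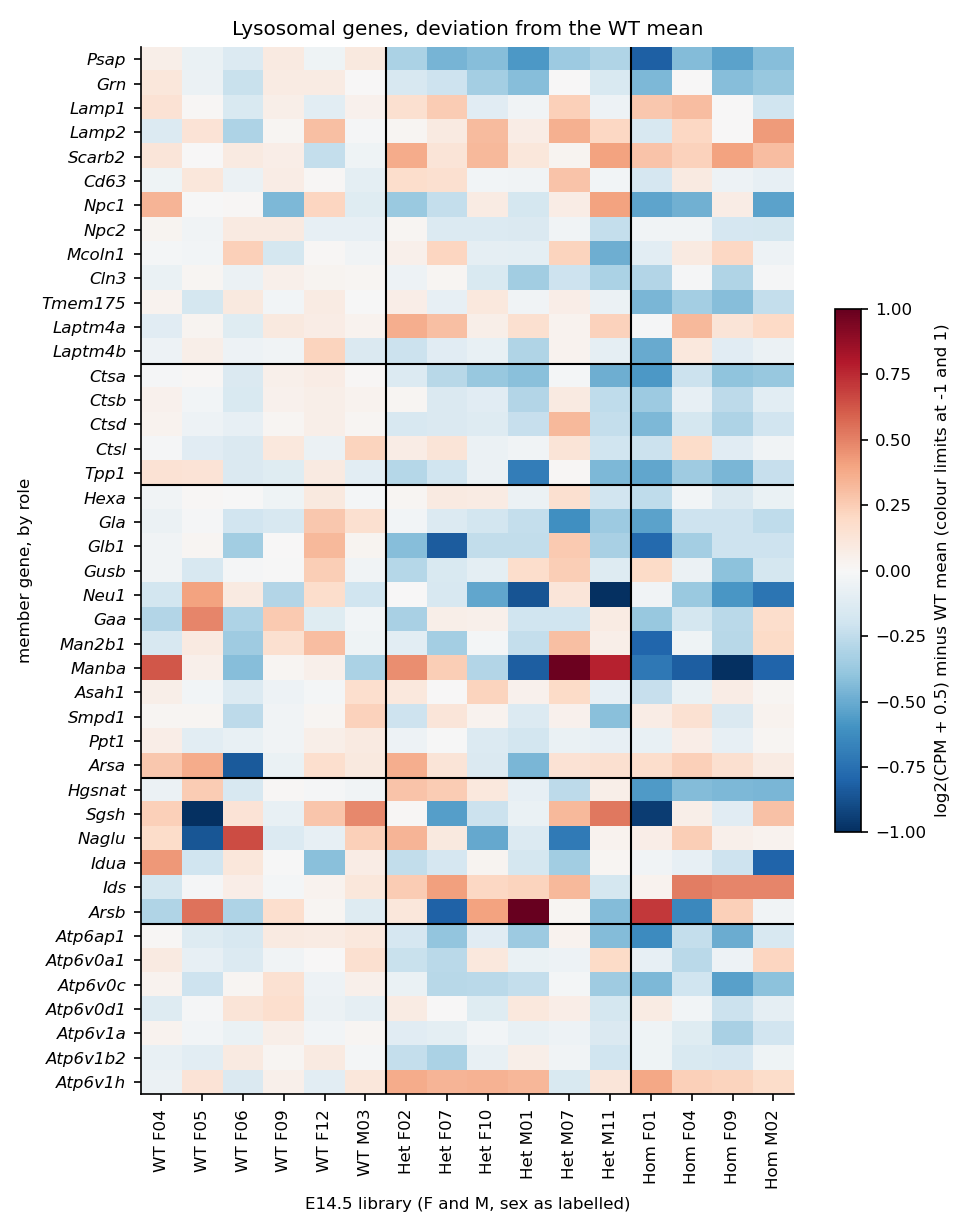
Deviation of each of the 43 members (rows, grouped by role) from its WT mean in each of the 16 E14.5 libraries (columns), as log2(CPM + 0.5), with the colour scale limited at -1 and 1. Blue cells in the Psap, Ctsa, Tpp1, Tmem175 and Hgsnat rows run through all 4 Hom columns, while Scarb2 and Atp6v1h are red there.

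The prosaposin, progranulin and membrane group had 2 of 13 members called lower, Psap and Tmem175. Tmem175 encodes a potassium and proton channel of the lysosomal membrane. It measured 23.98, 24.5, 26.03 and 28.07 CPM in the Hom libraries, against 29.23 to 35.48 CPM with a median of 33.5 CPM in WT. The change was -0.37 (SE 0.09, limma adjusted p = 0.0143; 0.0535 without Hom F01). Its Het libraries, 31.23 to 35.71 CPM, lay across the WT range, with a log2 change of 0.00 (SE 0.09). Of its exon bases, 35.3% are shared with Dgkq on the opposite strand, and whether counting used strand is not given in the sources used here.

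Grn, which encodes progranulin, a secreted protein that travels to lysosomes with prosaposin, had a Hom change of -0.31 (SE 0.10, limma adjusted p = 0.0529). Its Hom libraries measured 54.97, 56, 57.92 and 75.53 CPM, and the last, Hom F04, lay inside the WT range of 64.43 to 81.42 CPM. Scarb2, a membrane protein of lysosomes that acts as a sorting receptor, went the other way. Its Hom libraries measured 32, 33.24, 33.76 and 36.03 CPM, above all WT libraries (22.96 to 29.59 CPM), and the change of 0.31 (SE 0.10, limma adjusted p = 0.0565) missed the threshold. Lamp1 and Lamp2, the most abundant structural proteins of the membrane, had Hom changes of 0.10 and 0.11 and were not called. Npc1 and Npc2, which export cholesterol, had -0.37 (SE 0.18) and -0.10 (SE 0.06), also not called.

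Among the proteases, 3 of 5 members were called lower in Hom. Ctsa, a carboxypeptidase that also protects Neu1 and Glb1 from degradation, measured 80.29, 90.44, 91.85 and 103.3 CPM in Hom libraries and 108.7 to 126.4 CPM with a median of 120.7 CPM in WT. The groups did not overlap, and the change was -0.39 (SE 0.09, limma adjusted p = 0.0101). Tpp1, which removes tripeptides from the ends of proteins, measured 42.98, 44.88, 48.31 and 52.54 CPM in Hom and 55.97 to 68.39 CPM in WT (change -0.39, SE 0.11, limma adjusted p = 0.0347). Ctsd, the main aspartic protease of lysosomes, measured 115.6, 127.9, 138.9 and 140.2 CPM in Hom and 149.8 to 165.1 CPM in WT (change -0.29, SE 0.09, limma adjusted p = 0.0471). Ctsb and Ctsl, cysteine proteases, had changes of -0.20 (SE 0.08) and -0.05 (SE 0.09) and were not called. Ctsd shares 34.4% of its exon bases with Gm49369 on the same strand and Ctsa 10.5% with Pltp on the opposite strand. Without Hom F01, Ctsa was no longer called (limma adjusted p = 0.0513). Tpp1 lost its call without WT F04, WT F05, WT F12, Hom F01, Hom F04 or Hom F09 in turn (adjusted p up to 0.122 over all alternatives). Ctsd lost it without any of the 10 WT and Hom libraries, Het F02 or Het F07 (up to 0.17).

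In limma 0 of the 12 glycosidases and lipid hydrolases were called in Hom, with 3 at an unadjusted p under 0.05 (23.2% of all genes were), and 10 of 12 changes were negative, with a median of -0.15. Glb1, the beta-galactosidase of lysosomes, had -0.40 (SE 0.15, limma adjusted p = 0.0916), with 4 of 4 Hom libraries below the WT mean. Manba, a beta-mannosidase, had the largest fall of any member by size, -0.88 (SE 0.30, limma adjusted p = 0.07), but at a low level. Its Hom libraries measured 0.575, 0.887, 0.909 and 0.991 CPM and its WT libraries 1.32 to 3.27 CPM. Neu1, a sialidase, ran from 3.84 to 6.53 CPM in Hom and 5.37 to 9.02 CPM in WT, and its library Het M11 was at 0.642 CPM.

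Of the glycosaminoglycan enzymes, 1 of 5 tested was called. Hgsnat, which acetylates heparan sulfate during its breakdown, measured 5.43, 5.89, 5.95 and 6.00 CPM in Hom and 7.35 to 10 CPM in WT. The 4 Hom libraries were close together and below all WT and all Het libraries (6.82 to 10.2 CPM). The change was -0.46 (SE 0.14, limma adjusted p = 0.0429). That call was lost without any of the 4 Hom libraries or WT F04, WT F05, WT F09, WT F12 or WT M03 in turn (adjusted p up to 0.119 over all alternatives). Ids, which removes sulfate from heparan and dermatan sulfate, had a positive change that was not called, with Hom libraries at 9.57, 13.3, 13.3 and 13.5 CPM and WT libraries at 8.18 to 10.1 CPM.

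In the V-ATPase group 2 of 7 members were called lower. Atp6v0c, the proteolipid of the ring through which protons pass, measured 295.5, 314.6, 324.4 and 375.3 CPM in Hom and 373.3 to 478.5 CPM with a median of 439 CPM in WT. Hom F04 overlapped the lowest WT library by a small margin. The change was -0.40 (SE 0.08, limma adjusted p = 0.00486), and the gene was called in all 29 alternative analyses. Atp6ap1, an X-linked accessory subunit, measured 153.3, 167.7, 201 and 212.1 CPM in Hom and 212.4 to 255 CPM in WT (change -0.39, SE 0.10, limma adjusted p = 0.015), and was not called without Hom F01 or Hom F09 (adjusted p up to 0.0796). Atp6v1h, a regulatory subunit of the cytosolic sector, was above all WT libraries (124 to 150.1 CPM) in the 4 Hom libraries at 155.8, 159.9, 161.3 and 178.6 CPM, with a change of 0.27 (SE 0.09, limma adjusted p = 0.0621). The catalytic subunit Atp6v1a and its partner Atp6v1b2 had -0.17 (SE 0.07) and -0.11 (SE 0.08) and were not called.

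**Figure D4:**
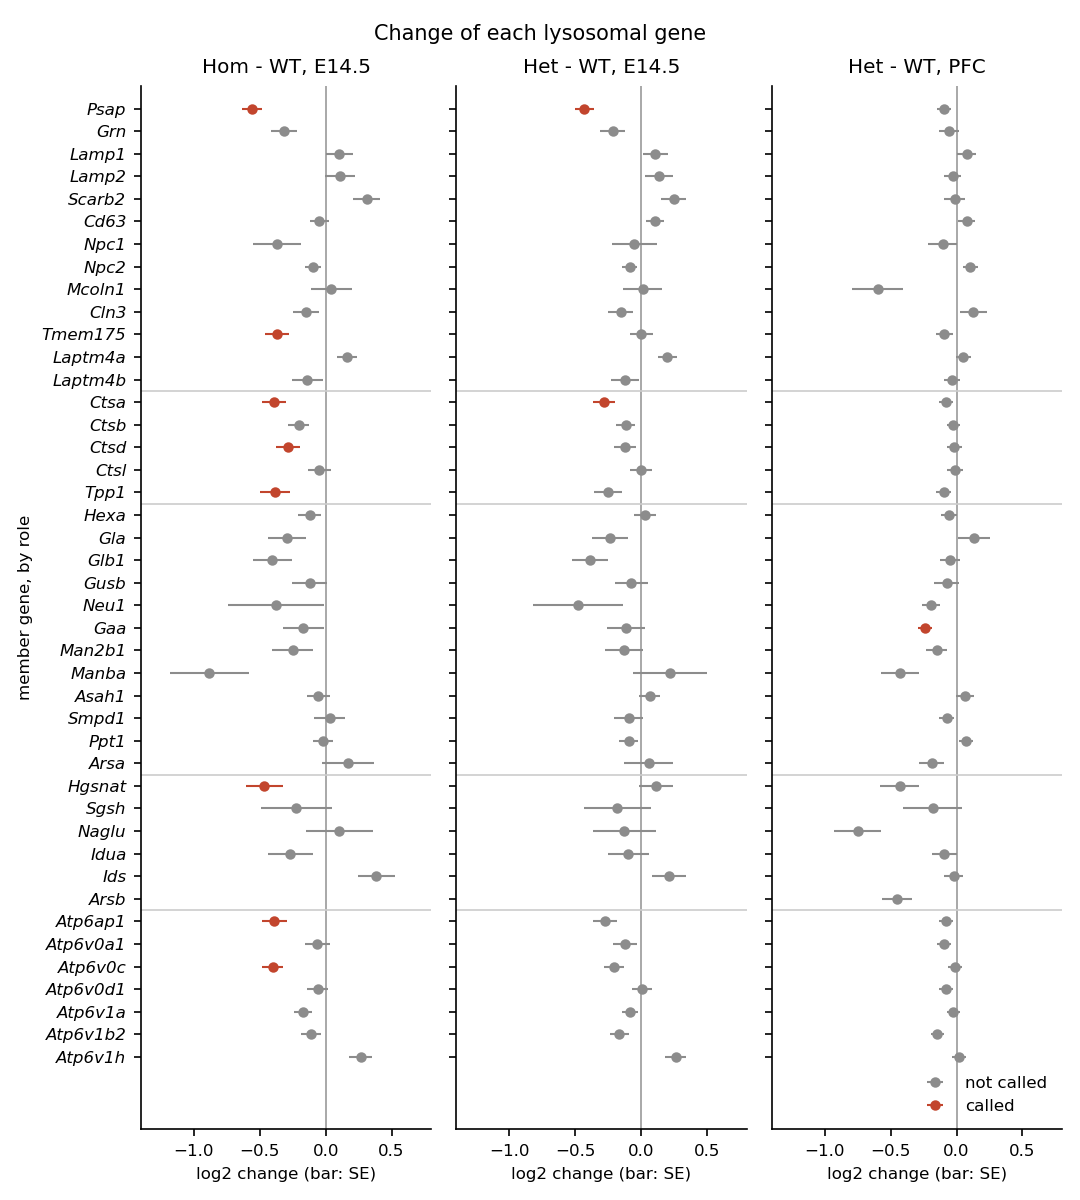
Log2 change with its SE for each member, by role, for Hom against WT and Het against WT at E14.5 and Het against WT in the PFC, with called members in red. The 8 called members in Hom embryos are all negative, 2 are called in Het embryos, and only Gaa is called in the PFC. Psap, which chose the group, is among the called members of both embryonic comparisons.

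In Het embryos 2 of 42 members were called lower, Psap and Ctsa, and 0 higher. Psap chose the group, so Ctsa was the only call apart from it. Over all genes 2.98% were called lower and 2.84% higher. Ctsa ran from 85.2 through a median of 95.4 to 118.1 CPM in Het libraries. All 6 were under the mean of WT, while the highest, Het M07, lay inside the WT range (change -0.28, SE 0.08, limma adjusted p = 0.0462). That call was lost in 19 of 29 alternative analyses, with adjusted p from 0.0106 to 0.127, among them those without WT F04, F05, F09, F12 or M03, Het F07, F10, M01 or M11, and Hom F09 or M02. Without Het M07, 7 members were called, 5 lower and 2 higher. The share of all genes called in that fit is not given here, so the count is not read as particular to the members. Het M07 held the highest microglial marker sum at E14.5 (164.2 CPM) and the highest Ctsd (198.8 CPM against 134 to 144.5 CPM in the other Het libraries). Whether these values bear on the count was not tested. Atp6ap1 (-0.27, SE 0.09, limma adjusted p = 0.0724) and Atp6v0c (-0.21, SE 0.08, limma adjusted p = 0.102) had negative Het changes. Atp6v1h (0.26, SE 0.08, limma adjusted p = 0.06) and Scarb2 (0.25, SE 0.09, limma adjusted p = 0.116) had positive ones, and none of these 4 was called.

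The Het mean lay between the WT and Hom means in 24 of 43 members, in the order WT, Het, Hom downward in 19 and upward in 5. Between Hom and Het embryos directly, 0 of 42 members were called in limma, with 4 at an unadjusted p under 0.05 against 5.12% of all genes. Over all genes 0.00805% were called, which is 1 gene, Myt1l. Hgsnat (-0.58, SE 0.14) and Tmem175 (-0.37, SE 0.09) had the lowest p (limma adjusted p = 0.59 for each), and in both every Hom library lay below every Het library. Manba followed, with -1.10 (SE 0.31, limma adjusted p = 0.775). Psap had -0.13 (SE 0.08) with a 95% confidence interval of -0.28 to 0.02.

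Related genes that are not members were counted for comparison. Over all genes tested, 4.37% were called lower and 3.23% higher in Hom. Of 31 other lysosomal hydrolases and activators, 3 were called lower and 0 higher in Hom, among them Hyal2, a hyaluronidase (-0.31, SE 0.07), and Acp2, an acid phosphatase (-0.39, SE 0.11). Of 31 tested lysosomal membrane proteins 3 were called lower and 0 higher, the nucleoside transporter Slc29a3 (-0.50), the chloride transporter Clcn6 (-0.51) and Glmp (-0.32). Of 11 other tested V-ATPase subunits 1 was called, Atp6v0e2 (-0.34, lower). The sorting list had 3 of 25 lower, with Vps11 (-0.46) and Vps16 (-0.36), which belong to tethering complexes for fusion with lysosomes, and Ap1m1 (-0.23). Among these Hom calls, Ap1m1 was lost in 14 of 29 alternative analyses, Glmp in 13 and Acp2 in 8, while Hyal2 and Vps11 were called in all 29. In Het embryos the sorting list had 5 of 25 lower: Vps11, Vps16, Ap1m1, the adaptor Gga3 (-0.34) and the endocytic receptor Lrp1 (-0.50), which also takes up prosaposin. Of all genes, 2.98% were called lower in Het, and the Gga3 call was lost in 18 of 29 alternative analyses (adjusted p up to 0.22).

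Of 3 tested prosaposin receptors 0 were called in Hom (1 at an unadjusted p under 0.05) and 1 in Het, Lrp1. The regulator list had 0 of 22 called in Hom in limma, with 3 at an unadjusted p under 0.05, against 23.2% of all genes. In Het, Fnip1, a partner of folliculin, was higher (0.70, SE 0.20, limma adjusted p = 0.0423), as was Zkscan3, a repressor of lysosomal genes (0.33, SE 0.10, limma adjusted p = 0.0469). The Fnip1 call was lost in 17 of 29 alternative analyses and the Zkscan3 call in 22 of 29. Tfe3 had a mean of 9.07 CPM ± 1.90 (SD, n = 6) in WT embryos, and its Hom mean was 9.25 CPM ± 0.0655 (SD, n = 4). Of 23 tested autophagy genes 3 were called lower in Hom, Atg4b (-0.29), Atg7 (-0.48) and Map1lc3b (-0.25), and 1 higher, Uvrag (0.82). The shares over all genes were 4.37% lower and 3.23% higher. The Map1lc3b call was lost in 9 of 29 alternative analyses, the Atg7 call in 6 of 29 and the Uvrag call in 7 of 28. Uvrag was weakly expressed, with a WT mean of 1.84 CPM.

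Cell type markers were summed beside these results. Of all genes tested, 23.2% had an unadjusted p under 0.05 in Hom, and the Hom counts below stand beside that share. Microglia are rich in lysosomes, and their 12 markers summed to 91.7 to 125 CPM in WT, 99.3 to 164 CPM in Het and 112 to 123 CPM in Hom embryos, with 0 of 12 called in limma (2 in Hom at an unadjusted p under 0.05) and none at 0. The 7 listed astrocyte markers summed to 1190 to 1307 CPM in WT, 965 to 1251 CPM in Het and 986 to 1044 CPM in Hom, and 1 of 5 tested was called, Aldoc (-0.42 in Hom). Aldoc made up most of that sum, with a mean of 880.7 CPM in WT and 653.7 CPM in Hom. Slc1a3 is in both the astrocyte and the radial glia list. The sum is therefore not a measure of astrocyte number. Choroid plexus markers summed to 1391 to 3976 CPM in WT, 2992 to 5186 CPM in Het and 1583 to 2873 CPM in Hom. The median change of the 8 endothelial and pericyte markers was -0.48 in Hom, with 0 called in limma and 3 at an unadjusted p under 0.05. Their sums overlapped, at 58.2 to 122.1 CPM in WT, 63.7 to 112.4 CPM in Het and 60.4 to 105.7 CPM in Hom. The 9 neuronal markers had summed levels from 6491 to 7595 CPM in Hom, 6581 to 8064 CPM in Het, and 7180 to 8307 CPM in WT. Tubb3, a neuronal tubulin, was called lower in Hom (-0.26) and Het (-0.23), and 5 of 9 neuronal markers had an unadjusted p under 0.05 in Hom. Most neuronal markers went the other way: 2 of 9 changes were negative in Hom (median 0.17) and 1 of 9 in Het (median 0.22). Neurod6, also a neuronal marker, was called higher in Het (0.24, limma adjusted p = 0.0481). The 9 radial glia markers had a median summed level of 1999 CPM in Hom, 2092 CPM in Het, and 1749 CPM in WT, with overlapping ranges. In Hom, Sox2 was called higher (0.59) and Prom1 lower (-0.43), and 5 of 9 radial glia markers had an unadjusted p under 0.05. The part that the differences in neuronal, radial glia, astrocyte, choroid plexus and endothelial markers had in the lysosomal changes was not tested. The microglial sums of WT and Hom overlapped.

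In adult PFC 1 of 43 members was called lower in Het, Gaa, and 0 higher. The share called over all 12870 genes was 0.225% lower and 0.179% higher. At an unadjusted p under 0.05 there were 8 of 43 members, against 13.6% of all genes. The median change was -0.07 against 0.01 over all genes, and 34 of 43 members were negative against 46.2% of all genes. Every Het library lay below every WT library in 2 members, Naglu and Neu1 (0.319% of all genes), and above in 0 (0.35% of all genes).

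Gaa, the acid alpha-glucosidase that breaks down glycogen, measured 206.1 through a median of 232.7 to 279.7 CPM in Het and 248.6 through 282.5 to 303.7 CPM in WT. The groups overlapped over both sexes. Among females the Het libraries (206.1, 206.2 and 219.7 CPM) lay below the WT libraries (248.6, 264 and 266.2 CPM). Among males the Het libraries (245.7, 274.5 and 279.7 CPM) also lay below the WT libraries (298.8, 299 and 303.7 CPM). The genotype term was -0.24 on the log2 scale (SE 0.05, limma adjusted p = 0.0439), with 6 of 6 Het libraries under the WT mean. The call was lost in 13 of 22 alternative analyses: with the identifier prefix as a block, no sex covariate, no trend and robust settings, the removed directions as covariates or the GC and length correction, and without WT F04, WT F06, WT F10, WT M03, WT M11, Het F02, Het F04 or Het F07 in turn, with log2 changes from -0.26 to -0.15 over all alternatives. At E14.5 Gaa was a weakly expressed member, with a WT mean of 15.96 CPM ± 3.78 (SD, n = 6) and a Het mean of 14.75 CPM ± 1.80 (SD, n = 6).

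Several enzymes of glycan breakdown followed by p. Naglu, which cleaves heparan sulfate, measured 1.61, 3.50, 3.67, 3.85, 4.11 and 4.52 CPM in Het, and all WT libraries were higher, from 4.95 to 7.84 CPM. The change of -0.75 (SE 0.18) narrowly missed the threshold (limma adjusted p = 0.0515). Arsb, the sulfatase that was too low to test in embryos, measured 9.70 to 18.2 CPM in Het and 15.6 to 19.6 CPM in WT (change -0.45, SE 0.11, limma adjusted p = 0.0705). Its library Het M05, at 18.2 CPM, was inside the WT range. Neu1 measured 49.6 to 60.7 CPM in Het and 60.72 to 73.8 CPM in WT, a separation of almost nothing between the nearest libraries (change -0.19, SE 0.07, limma adjusted p = 0.182). Hgsnat had -0.43 (SE 0.15) and Manba -0.43 (SE 0.14), with 6 of 6 Het libraries under the mean of WT in each and neither called.

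**Figure D5:**
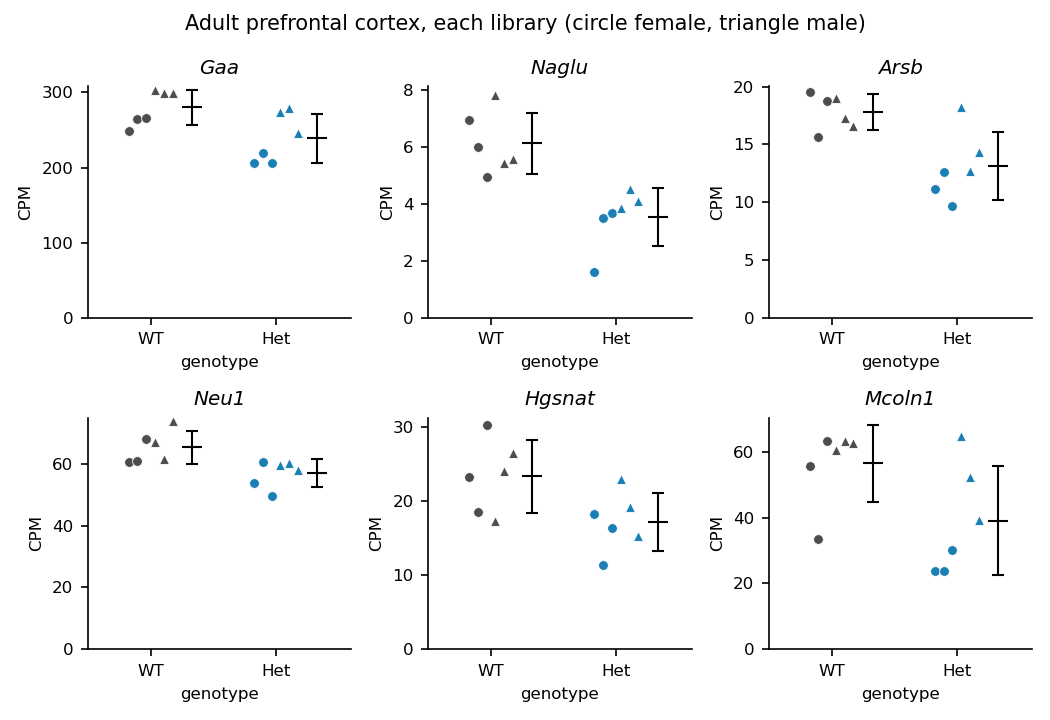
CPM of 6 members in each adult PFC library by genotype, with circles for females, triangles for males and bars for the mean ± SD. Gaa is lower in Het within each sex, Naglu is below all WT libraries in all 6 Het libraries, and the Mcoln1 libraries of Het females lie between 23.71 and 30.17 CPM.

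Mcoln1, a calcium channel of the lysosomal membrane, had the largest coefficient of variation of any member within an adult group, 42.6% in Het. Its Het females measured 23.71, 23.88 and 30.17 CPM and its Het males 39.45, 52.56 and 64.77 CPM. Of the WT libraries 5 lay between 55.63 and 63.45 CPM, and WT F06 was at 33.44 CPM. The genotype change was -0.60 (SE 0.19, limma adjusted p = 0.208) and the male minus female difference 0.66 (SE 0.19, limma adjusted p = 0.125). Neither was called, and the interaction was not called either (0.64, SE 0.32, limma adjusted p = 0.634).

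The 7 V-ATPase members were among the most abundant in adults, and 0 of 7 were called in limma, with 1 at an unadjusted p under 0.05. Atp6v1b2 had the lowest p of them, with 580.4 to 697.3 CPM in Het and 650.8 to 753.1 CPM in WT (change -0.15, SE 0.05, limma adjusted p = 0.182). Of the 8 members called in Hom embryos, Hgsnat had an adult change of -0.43, given above. The others had adult changes between -0.10 and -0.01, none called: Psap -0.09 (SE 0.05), Atp6v0c -0.01 (SE 0.05), Ctsd -0.02 (SE 0.06), Ctsa -0.08 (SE 0.05), Atp6ap1 -0.08 (SE 0.05), Tpp1 -0.10 (SE 0.06) and Tmem175 -0.09 (SE 0.06). Of the 145 tested genes of the 8 related lists, members aside, 0 were called in Het PFC in limma and 21 had an unadjusted p under 0.05. The share of all genes under that unadjusted p in Het PFC was 13.6%. Of the transcription factors of the TFEB family, Tfeb averaged 4.41 CPM ± 1.24 (SD, n = 6) in WT animals, and its Het average was 4.23 CPM ± 0.533 (SD, n = 6). Mitf had means of 3.60 CPM ± 0.588 and 5.51 CPM ± 0.827 (SD, n = 6 each), a change of 0.55 (SE 0.16, limma adjusted p = 0.0995). Microglial markers summed to 752 to 931 CPM in WT and 759 to 877 CPM in Het, with 0 of 12 called in limma and 3 at an unadjusted p under 0.05. These sums overlapped, while 10 of 12 microglial markers had a negative change, with a median of -0.10 against 0.01 over all genes. All 5 tested erythroid markers were negative in Het PFC (median -0.36), 4 of 5 at an unadjusted p under 0.05, and Hbb-bt was called lower (-0.54). The part of the microglial and erythroid shifts in the adult changes was not tested.

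Males and females of the PFC were compared over both genotypes. Of the 43 members 1 was called, Gaa, and 1.09% of all genes were. Gaa was higher in males by 0.27 (SE 0.05, limma adjusted p = 0.0146), with 6 of 6 male libraries above the female mean. It was called whichever library was left out, but not with the identifier prefix as a block or with no genotype covariate. Sex and identifier prefix were tied in the PFC: a prefix held only males, and most females shared another. A difference between sexes and a difference between prefixes therefore cannot be fully told apart here. The 4 X-linked members, Lamp2, Gla, Ids and Atp6ap1, were not called. Psap had 0.14 (SE 0.05, limma adjusted p = 0.163), with 6 of 6 male libraries above the female mean, and Lamp1 had -0.23 (SE 0.07, limma adjusted p = 0.113). Outside the members, Gga3 was higher in males (0.32) and Rragd, a GTPase of amino acid sensing at the lysosome, lower (-0.28). The Gga3 call was lost in 12 of 22 alternative analyses and the Rragd call in 13 of 22, in both with the identifier prefix as a block. For the interaction of genotype and sex 0 of 43 members and 0% of all genes were called in limma. Only Grn had an unadjusted p under 0.05 (0.33, SE 0.13, limma adjusted p = 0.523), against 8.5% of all genes.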

How the data were processed

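Gene expression was measured by RNA sequencing, with 16 libraries of E14.5 cortex and 12 of adult PFC. The deposited tables hold log2 CPM with a prior count of 2, after RUVr, a step by which the authors removed unwanted variation. The genome build was mm10 and the tools were STAR, HTSeq, Bowtie2 and Trimmomatic, per the submitters' processing notes. Tool versions and the strand setting of the counting were not given in the sources used here. CPM was recovered by inverting the log2 values. Each library's values are whole multiples of a step (100% within a tolerance of 0.01), with totals of 19601294 to 30811856 steps, but scaling and adjustment mean these are not reads, so sequencing depth is unknown and no count test was run. RUVr left 2 directions of almost no variance at E14.5 and 1 in the PFC.

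Tested genes reached 1 CPM in 4 or more (E14.5) or 6 or more (PFC) libraries, 12429 and 12870 in all. limma 3.58.1 in R 4.3.3 was run on log2(CPM + 0.5) with trend and robust settings, genotype and labelled sex as terms, and all libraries of a tissue in 1 fit. The script was tested on simulated data. P-values measure the spread between animals that was left after RUVr. The directions RUVr removed were not taken out of the residual degrees of freedom of the main fit, so these p-values can be too small. The members, the related lists and the markers were chosen with earlier results of these data known. Named members are Myt1l, Psap, the called ones and further members by lowest p up to 10 a comparison, and of each related list up to 4 genes by lowest p. Other members and genes are named as examples. Some results that met this rule are not reported here. Coordinates and transcript lengths came from GENCODE vM21 on GRCm38. Promoter windows came from RefSeq on GRCm38.p6, and 7 members had no window. Alternatives changed the pseudocount (0.1 or 2), the filter (none or 5 CPM), scaling, covariates, blocks and libraries. Corrections for GC content and length, and leaving out Het F10 with Het M11, were chosen after seeing the data. Figures were drawn with matplotlib 3.10.9.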

Additional observations from a re-analysis of the deposited data

Results flagged for a closer look

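Among 30 members in 5 groups each, 150 groups were searched for a library far from the others by Dixon's criterion, and 9 were found. About 1 in 20 groups would be marked by chance. Ctsd was at 198.8 CPM in the E14.5 library Het M07, against 134 to 144.5 CPM in the other Het libraries, and that library also had the highest microglial marker sum. Mcoln1 was at 33.44 CPM in the PFC library WT F06, against 55.63 to 63.45 CPM in the other WT libraries. Naglu was at 1.61 CPM in the PFC library Het F02 (others 3.502 to 4.523 CPM) and at 3.275 CPM in the E14.5 library Hom F04 (others 2.76 to 2.836 CPM). Grn was at 75.53 CPM in Hom F04 at E14.5, against 54.97 to 57.92 CPM, and Npc1 at 9.159 CPM in Hom F09, against 5.822 to 6.073 CPM. Man2b1 was at 37.27 CPM in the PFC library Het M08 (others 30.06 to 32.68 CPM). Manba was at 3.265 CPM in WT F04 at E14.5 (others 1.321 to 2.043 CPM), and Hexa at 44 CPM in WT F12 (others 39.73 to 41.31 CPM).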

How the results depend on the processing

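The number of members called in Hom embryos, 8 and all lower, became 5 without the trend and robust settings, 5 with the removed directions as covariates and 13 (2 of them higher) when only the 2 genotypes were compared. With 1 library left out it ran from 3 (1 of them higher) to 11 (2 of them higher). In Het embryos the count of 2 became 1 with no filter on low values, with the identifier prefix as a block, without trend and robust, with the removed directions as covariates, with only the 2 genotypes compared, and, among the alternatives chosen after seeing the data, with the GC and length correction (1) and without both Het F10 and Het M11 (1). With 1 library left out it ran from 1 to 7. Hom against Het and the interaction gave 0 in every alternative run. In the PFC the Het count of 1 became 2 with a pseudocount of 2 and after centring the libraries on their medians (2). It became 0 with no sex covariate, the identifier prefix as a block, no trend and robust settings, the removed directions as covariates or the GC and length correction, and ran from 0 to 2 with 1 library left out. The sex count of 1 became 0 with no genotype covariate, with the identifier prefix as a block and without trend and robust, and ran from 1 to 2. PFC members with all Het below all WT numbered 2, and 1 after centring on the median. Centring also moved the genes called lower in Hom embryos from 4.37% to 6% and those called higher from 3.23% to 2.37%, with 9 members lower and 0 higher. Psap kept its direction in every alternative run. At E14.5 these runs reuse the libraries whose values chose the group, so this describes Psap and is no support for its fall. Psap is also counted in the embryonic numbers of members called. Of the named changes, the sign turned in 1, Myt1l between sexes in the PFC (0.003 with the GC and length correction). Fewer samples or residual degrees of freedom enter some of these fits, and otherwise the cause was not tested. Apart from centring in Hom embryos, the share of all genes called in each alternative is not given here. A moved count is therefore not read as particular to the members. The numbers in the labels pair no libraries across genotypes, so no paired analysis was run. The identifier prefix is shared by libraries of different genotypes and was fitted as a block among the alternatives.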
